A study of Mus musculus with 16 samples.

Results

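The pressure overload response of the NOS3-transgenic (NOS3-TG) left ventricle was taken from 8 of the 16 arrays of the series: the 4 titled alpha-MHC-NOS3 10 weeks TAC and the 4 titled alpha-MHC-NOS3 control-intact. All 8 mice carried nitric oxide synthase 3 (Nos3) driven in cardiomyocytes by the promoter of alpha-myosin heavy chain (alpha-MHC), and came from a line backcrossed for 7 generations to C57Bl/6 N. The TAC mice had undergone transverse aortic constriction, an operation that narrows the aorta and so makes the left ventricle pump against a higher pressure, and were sampled after 10 weeks. The baseline mice were left intact rather than sham-operated, so load and surgery cannot be told apart. Each group held 2 males (replicates 1 and 3) and 2 females (replicates 2 and 4), matched for age and weight. Their ages, and whether more than 1 founder line was used, are not given in the sources used here. Total RNA came from a mid-ventricular ring and was labelled with Cy3 for one-colour Agilent arrays. Wild-type (WT) littermates, 4 per condition, made up the other 8 arrays and serve below as a comparison.

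A ventricle under pressure load enlarges its myocytes, re-expresses genes of the fetal heart such as those of the natriuretic peptides and skeletal alpha-actin, lays down matrix, and shifts away from fatty acid oxidation, its main source of fuel. Nos3 makes nitric oxide from arginine with tetrahydrobiopterin as cofactor, and nitric oxide raises cyclic GMP in the cell, a second messenger that the natriuretic peptides raise as well through their own receptors. Both signals are known to restrain myocyte growth.

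All levels below are log2 of the processed signal relative to the 75th percentile of the same array, so 0 is that percentile and a difference of 1 is a doubling. That percentile averaged 1280 ± 166 on the TAC arrays and 1259 ± 100 on the baseline arrays (SD, n = 4, exact two-sided permutation p = 0.8, the smallest possible being 0.0286). The share of probes well above background was 54.98% ± 9.27 after TAC and 50.38% ± 4.3 at baseline (SD, n = 4, exact permutation p = 0.429), with baseline replicate 2 lowest (44.47%) and TAC replicate 4 highest (68.05%). Of 15667 genes tested with limma, 1013 rose (6.47%) and 838 fell (5.35%), so that 11.8% were called at an adjusted p below 0.05. In 1424 genes (9.09%) all 4 TAC arrays lay above all 4 baseline arrays, and in 1164 (7.43%) all lay below. A change of more than 2-fold was called in 405 genes (2.59%). Baseline and TAC arrays were hybridised on separate slides, and TAC replicates 3 and 4 shared a slide scanned on another day. Slide and condition therefore cannot be told apart. With scan day as a term 756 genes were called, and without baseline replicate 2, TAC replicate 3 and TAC replicate 4, the arrays farthest from the others in share above background, 401 were called. Of the 208 called genes that belonged to the gene lists and marker lists used below, all 208 kept their sign under both settings, and 46 kept their call under both and in each of 16 fits with 1 array left out. Those 46 are called firm below. The word does not cover the background correction or the choice of probe: 2 of the 46 (Mthfd2 and Tnnt3) lost the call when background was corrected with normexp, a model of signal and background, and 2 (Acta2 and Cenpf) when the probes of a gene were averaged.

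Acta1, the skeletal alpha-actin of the fetal and the loaded heart, lay at 5.39, 4.12, 5.18 and 4.52 on the baseline arrays and at 7.17, 7.49, 7.08 and 7.74 on the TAC arrays, in replicate order. The lowest TAC array stood well clear of the highest baseline array, and Acta1 rose by 2.56 ± 0.33 on the log2 scale (SE, 4 arrays per group, adjusted p = 0.000746). The females started lower and ended higher than the males, with a difference of 3.29 in females and 1.84 in males. Nppb, which encodes B-type natriuretic peptide, lay at 5.14, 6.10, 5.09 and 5.85 at baseline and at 7.86, 7.50, 7.33 and 7.81 after TAC, again without overlap, and rose by 2.08 ± 0.29 (adjusted p = 0.0011). Acta1 and Nppb are firm. Nppa, the gene of atrial natriuretic peptide, lay at 6.59, 7.21, 5.87 and 7.16 at baseline and was nearly even after TAC, at 8.49, 8.45, 8.32 and 8.56. It rose by 1.75 ± 0.39 (adjusted p = 0.0143) and kept the call with each array left out (highest adjusted p 0.0445), but not with scan day as a term (adjusted p = 0.0587) or without the 3 arrays named above (adjusted p = 0.0846). The probe that stood for Acta1 lies on chromosome 8 from 122479438 to 122479497 as the files place it (genome build not given in the sources used here).

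The promoters of Acta1 and Nppb are shown as those of the first genes described, as the 250 bases before the RefSeq start in assembly GRCm38.p6. In that of Acta1 (chr8:123894776-123895025, minus strand) the capitals mark a CArG box, the core that binds serum response factor, whose first base lies 73 bases before the start. In that of Nppb (chr4:147985650-147985899, plus strand) they mark AGATAA, the core bound by GATA factors, which begins 84 bases before the start.
Acta1: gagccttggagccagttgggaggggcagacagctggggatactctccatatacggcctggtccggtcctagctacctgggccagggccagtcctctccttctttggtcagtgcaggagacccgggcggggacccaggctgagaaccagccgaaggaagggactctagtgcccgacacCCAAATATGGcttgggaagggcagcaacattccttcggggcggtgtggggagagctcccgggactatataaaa
Nppb: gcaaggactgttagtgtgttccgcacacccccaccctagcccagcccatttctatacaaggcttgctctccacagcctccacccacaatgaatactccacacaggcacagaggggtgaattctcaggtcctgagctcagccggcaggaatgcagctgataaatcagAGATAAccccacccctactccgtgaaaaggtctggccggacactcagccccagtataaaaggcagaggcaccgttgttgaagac
Searched on both strands with no overlap between these motifs, a CArG box is found in 1.47% and AGATAA in 9.99% of the 32851 promoter windows of that length. The window of Nppa, the neighbour of Nppb on chromosome 4, holds neither of them. A match is a stretch of letters and was not tested for binding.

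The natriuretic system was measured by 8 of its 9 listed genes, of which 3 rose and 1 fell. Their median log2 difference was 0.139, against -0.001 over all genes. Lists and their members were chosen with earlier results of these data known. Shares and medians of lists set beside those of all genes (11.8% called), here and below, therefore describe the chosen lists and test nothing. Besides the peptide genes, Npr3, the clearance receptor that removes natriuretic peptides, lay between 0.22 and 0.52 at baseline and between 0.62 and 0.93 after TAC, and rose by 0.45 ± 0.13 (adjusted p = 0.0466). Mme encodes neprilysin, a peptidase that degrades the natriuretic peptides. Its levels were -1.85, -2.70, -1.54 and -2.12 at baseline and -3.88, -2.79, -3.55 and -2.94 after TAC, a fall by 1.24 log2 units (adjusted p = 0.0218). The male TAC arrays were the lowest, and the fitted difference was -2.02 in males and -0.45 in females. With the probes of each gene averaged, neither Npr3 nor Mme passed (adjusted p = 0.0717 and 0.0767). Leaving out 1 array removed the call of Npr3 in 12 of 16 fits (highest adjusted p 0.121, without baseline replicate 3) and that of Mme in 4 (0.0679, without TAC replicate 1). Corin, the protease that activates the Nppa precursor (-0.33, adjusted p = 0.237), Furin, another convertase of such precursors (-0.17, adjusted p = 0.324), and the receptor gene Npr2 (-0.18, adjusted p = 0.29) did not pass.

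The hypertrophic fetal programme was the list of which the largest share rose: of 26 measured genes 12 rose and 1 fell, with a median log2 difference of 0.701. It kept 7 rises with scan day as a term and 6 without the 3 arrays. Xirp2, a repeat protein that binds actin at the intercalated disc, lay at 6.14, 5.95, 6.14 and 6.05 at baseline and at 6.83, 7.13, 7.11 and 7.28 after TAC, and rose by 1.02 ± 0.10 (adjusted p = 0.000115). The groups did not overlap. Synpo2l, a Z-disc protein, moved alike, from between 6.67 and 6.90 to between 7.76 and 8.13 (1.14 ± 0.12, adjusted p = 0.00019). Enah, a regulator of actin filament ends, rose by 1.23 ± 0.17 (adjusted p = 0.00107) and Uchl1, a deubiquitinating enzyme, by 1.30 ± 0.24 (adjusted p = 0.00508). Xirp2, Synpo2l, Enah and Uchl1 are firm. Rcan1, whose product binds calcineurin and whose gene is a target of calcineurin signalling, lay between 2.56 and 2.78 at baseline and at 4.82, 3.42, 4.24 and 4.41 after TAC, so that TAC replicate 2 was the lowest of its group but still clear of baseline. It rose by 1.59 ± 0.32 (adjusted p = 0.00757), with an adjusted p of 0.0879 without the 3 arrays.

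Not all of the fetal programme passed. Ankrd1, a stretch-responsive Z-disc and nuclear protein, lay between 7.23 and 7.47 at baseline and at 7.39, 7.77, 7.36 and 7.65 after TAC, with overlap (0.21 ± 0.15, adjusted p = 0.389). The 2 female TAC arrays were the highest of the 8. Xirp1, a relative of Xirp2, differed by 0.25 ± 0.17 (adjusted p = 0.381). Ankrd2 (1.34 ± 0.41, adjusted p = 0.0513) and Thbs4, a thrombospondin of loaded muscle (1.88 ± 0.60, adjusted p = 0.058), had large differences with wide errors. Klf6 was the member that fell, by 0.53 log2 units (adjusted p = 0.0217, and 0.0645 without baseline replicate 4, 3 of 16 fits losing the call).

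**Figure D1:**
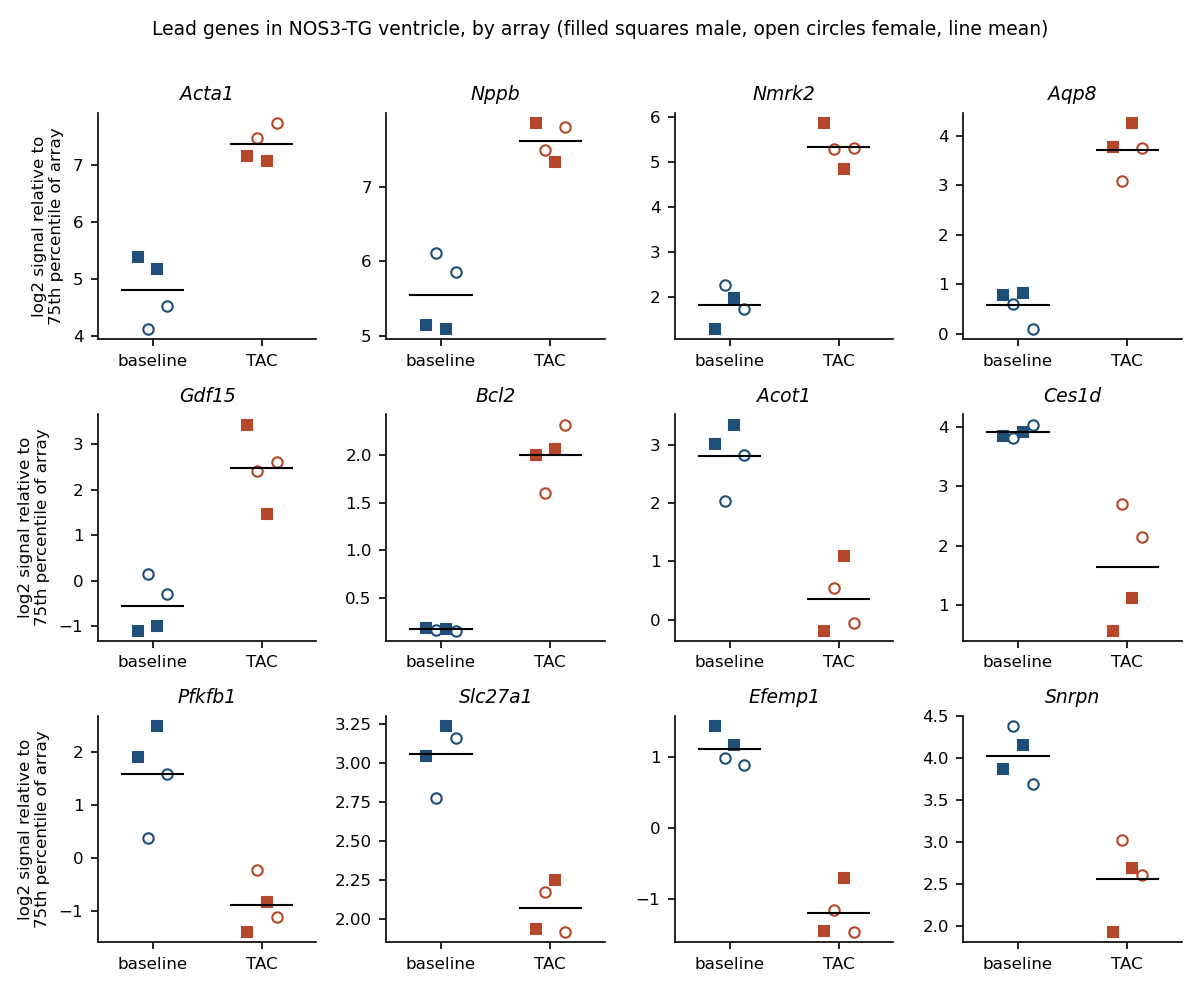
Log2 signal relative to the 75th percentile of the array (vertical axis) of 12 genes on the 4 baseline and 4 TAC arrays of NOS3-TG mice, with filled squares for males, open circles for females and a line at the group mean. Acta1, Nppb, Nmrk2, Aqp8, Gdf15 and Bcl2 lie higher and Acot1, Ces1d, Pfkfb1, Slc27a1, Efemp1 and Snrpn lower on every TAC array than on every baseline array.

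Contractile genes of the adult ventricle showed few calls. Of 20 cardiomyocyte markers 0 were called in either direction. Of 30 measured sarcomere and Z-disc genes 4 rose and none fell (13.3% called against 11.8% of all genes, median difference -0.058). The risers were Acta1, Des, Myot and Pdlim5, and the mean of the Pdlim5 probes did not pass (0.34, adjusted p = 0.0795). Des, the intermediate filament desmin that ties Z-discs together, lay at 5.14, 5.08, 5.31 and 5.39 at baseline and almost level, at 5.93, 5.89, 5.93 and 5.88, after TAC (0.68 ± 0.13, adjusted p = 0.00653). It kept the call with scan day as a term (adjusted p = 0.0334), but not without the 3 arrays (adjusted p = 0.0947). Tnnt3 and Tnni2, fast skeletal troponins, moved in opposite directions. Tnnt3 was not well above background on any baseline array and was at least 1.64-fold higher after TAC (adjusted p = 0.000442). With normexp its difference was 0.51 and did not pass. Tnni2 fell by 0.92 log2 units (adjusted p = 0.00529). Such a fold is a lower bound for the processed signal alone, and differences with normexp could fall below it. For it, the gene was set on each array of the dim group to its own signal. Where greater, the dimmest signal that still counted as above background was used instead.

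Several of the largest rises lay outside the fetal programme. Nmrk2, the muscle nicotinamide riboside kinase that feeds NAD synthesis, lay at 1.30, 2.27, 1.97 and 1.74 at baseline and at 5.88, 5.30, 4.85 and 5.33 after TAC. The groups were more than 2 log2 units apart at their nearest arrays, and the gene rose by 3.52 ± 0.34 (adjusted p = 0.000115). Aqp8, a channel for water and hydrogen peroxide, lay at 0.78, 0.60, 0.81 and 0.10 at baseline and at 3.77, 3.08, 4.26 and 3.75 after TAC (3.14 ± 0.22, adjusted p = 1.47e-05). With Bcl2 this was the smallest adjusted p of the comparison. Gdf15, a stress cytokine of the TGF-beta family, lay between -1.09 and 0.16 at baseline and at 3.43, 2.41, 1.47 and 2.61 after TAC (3.03 ± 0.58, adjusted p = 0.00634). Its TAC values spread over nearly 2 log2 units, and both extremes were males. Ces5a, a carboxylesterase, was not well above background on any baseline array and was at least 3.97-fold higher after TAC (adjusted p = 5.67e-05), and Adamts20, a secreted protease, at least 3.31-fold (adjusted p = 0.00195). Ces5a and Adamts20 were below background on every baseline array, so they entered the test through arrays where they were higher, and with normexp their log2 differences shrank from 3.72 to 1.58 (adjusted p = 0.00362) and from 3.30 to 1.23 (adjusted p = 0.0218). Nmrk2, Aqp8 and Gdf15 are firm. Pbp2 (at least 4.07-fold, adjusted p = 0.00931) and Star, which brings cholesterol into mitochondria (at least 3.28-fold, adjusted p = 0.0122), rose from below background as well, with log2 differences of 1.76 and 1.52 with normexp (adjusted p = 0.0373 and 0.0234). Dio2, the deiodinase that activates thyroid hormone, rose by 2.56 ± 0.65 (adjusted p = 0.0245), with TAC replicate 2 at -0.47 and the other TAC arrays between 1.13 and 2.55. Its call was lost in 4 of 16 fits with 1 array left out, at most at 0.0756 without TAC replicate 1.

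Ion handling genes mostly fell where they were called. Of 23 calcium cycling genes 2 rose and 4 fell (median -0.154), and of 21 potassium channel genes 0 rose and 4 fell (median -0.3), with no potassium channel gene called without the 3 arrays. Camk2b, a subunit of calcium/calmodulin-dependent kinase, lay at 0.84, 0.21, 0.71 and 0.37 at baseline and between -0.09 and -0.01 on all TAC arrays (fell by 0.58, adjusted p = 0.00355), and is firm. Slc8a1, the sodium-calcium exchanger that extrudes calcium, rose by 0.42 ± 0.12 (adjusted p = 0.0437). Trdn, the triadin that anchors calsequestrin, fell by 0.51 (adjusted p = 0.0484). Each lost the call in 11 of 16 fits with 1 array left out (at most at 0.0974 without baseline replicate 1 and 0.137 without TAC replicate 1). Neither passed for the mean of its probes (0.25, adjusted p = 0.196, and -0.33, adjusted p = 0.103). Kcnh2, the channel of the rapid delayed rectifier, lay at 2.06, 1.93, 1.99 and 2.09 at baseline and at 0.97, 1.22, 1.24 and 0.84 after TAC. It fell by 0.95 log2 units (adjusted p = 0.00688), alike in males (-0.92) and females (-0.98). Kcnj3, a G protein-gated potassium channel typical of atrial and nodal cells, fell by 1.34 (adjusted p = 0.00634). The atrial markers described below had a median difference of -1.204, and the part of atrial tissue in this fall was not tested. Kcnv2, a modifying subunit, lay between -0.28 and 0.02 at baseline and at -3.75, -0.95, -2.31 and -1.54 after TAC, lowest in the males (fell by 1.98, adjusted p = 0.0231, and 0.0685 without baseline replicate 1). Kcnd2, a subunit of the transient outward current, had a like split, with the male TAC arrays at -0.28 and -0.36, the females at 1.43 and 0.47 and baseline between 1.42 and 2.05, and did not pass (adjusted p = 0.0657).

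Of the adrenergic and endothelin genes, Edn3 and Adra1b are firm. Edn3, an endothelin peptide gene, lay between -3.83 and -3.63 at baseline and between -1.94 and -1.44 after TAC (2.04 ± 0.19, adjusted p = 0.00011). Its baseline values were near the floor: the dimmest signal counted as above background ran from -4.58 to -2.995 on those arrays. With normexp its difference was 1.33 (adjusted p = 0.000312). Adra1b, the alpha-1B adrenoceptor, fell by 0.84 (adjusted p = 0.0159), though TAC replicate 3 (4.04) lay above baseline replicate 2 (3.81). Grk5, a kinase that desensitises adrenoceptors, rose by 0.61 ± 0.13 (adjusted p = 0.00953), and Prkar1a, a regulatory subunit of protein kinase A, by 0.96 ± 0.16 (adjusted p = 0.00289). Neither of the latter kept its call without the 3 arrays (adjusted p = 0.0746 and 0.0618). In all, 3 of 27 genes of that list rose and 1 fell, a called share of 14.8%, near the 11.8% of all genes.

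In the matrix lists chosen here a larger share rose than over all genes. Of 40 measured crosslinking, matricellular and elastic fibre genes 14 rose and 2 fell (median 0.606), and of 18 collagen chains 4 rose and 0 fell (median 0.511). With scan day as a term these counts were 3 and 2, and 1 and 0, and without the 3 arrays 1 and 2, and 0 and 0, while the medians stayed between 0.398 and 0.74. Adamtsl2, a secreted protein that binds microfibrils, was counted with the metalloproteinases and inhibitors instead. It lay at -0.34, 0.64, -1.31 and -0.19 at baseline and at 1.38, 1.82, 1.13 and 1.57 after TAC (1.77 ± 0.30, adjusted p = 0.00324) and is firm. Lox, the enzyme that crosslinks collagen, lay at -4.41, -5.16, -4.72 and -5.60 at baseline, where 1 array was well above background, and at -1.35, -3.62, -2.21 and -3.30 after TAC (adjusted p = 0.00741). Since most of its baseline values were below background, no size is given, and with normexp its difference of 1.11 did not pass (adjusted p = 0.0837). Its male TAC arrays were highest. Cilp, a matrix protein of cardiac fibroblasts, rose by 2.43 ± 0.59 (adjusted p = 0.0192) and Postn, a protein of activated fibroblasts, by 1.67 ± 0.48 (adjusted p = 0.0402). In Cilp the male TAC arrays were at 3.89 and 3.68 and the female at 1.80 and 2.95, and in Postn the males were at 5.52 and 4.63 and the females at 3.14 and 4.15. The lowest Postn array after TAC, replicate 2, lay below the highest at baseline, 3.19. Leaving out 1 array removed the call of Cilp in 2 of 16 fits (highest adjusted p 0.0565, without TAC replicate 4) and of Postn in 9 (0.119, without TAC replicate 1). Among the collagens, Col8a1, a short-chain collagen of vessels and stroma, rose by 1.44 ± 0.32 (adjusted p = 0.0131), and the basement membrane chain Col4a1 by 1.03 ± 0.20 (adjusted p = 0.00685). The main fibrillar chain gene Col1a1 lay at 4.57, 4.21, 3.74 and 3.71 at baseline and at 5.02, 4.41, 5.28 and 4.68 after TAC, overlapped, and did not pass (0.79 ± 0.25, adjusted p = 0.0612).

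Efemp1 and Thbs2 went the other way and are the only firm genes of the crosslinking and collagen lists. No riser of these lists is firm. Efemp1, the extracellular protein fibulin-3, lay at 1.43, 0.99, 1.16 and 0.89 at baseline and at -1.45, -1.16, -0.70 and -1.46 after TAC, and fell by 2.31 log2 units (adjusted p = 0.00121). Thbs2, a matricellular thrombospondin, lay at 0.24, -0.10, 0.24 and -0.04 at baseline and at -0.55, -1.03, -0.42 and -1.55 after TAC (fell by 0.97, adjusted p = 0.00111). Neither gene overlapped between groups. Timp3, an inhibitor of metalloproteinases, fell by 0.67 (adjusted p = 0.0118).

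Among the growth factors of fibrosis, Tgfb2 lay at -0.80, -0.99, -1.28 and -1.25 at baseline and at 0.43, -0.17, 0.06 and 0.43 after TAC (1.27 ± 0.26, adjusted p = 0.00867). Its rise was alike in males (1.29) and females (1.25). Tgfb3 rose by 0.58 ± 0.14 (adjusted p = 0.0176), with a highest adjusted p of 0.0533 without TAC replicate 4, and Fstl1, a follistatin-like secreted protein, by 1.09 ± 0.27 (adjusted p = 0.0201, and 0.0613 without baseline replicate 3). Inha, an inhibin subunit, and Ltbp1, which binds latent TGF-beta, fell by 0.48 and 0.51 (adjusted p = 0.0248 and 0.0232). Each lost the call in 5 of 16 fits with 1 array left out (at most at 0.0744 without baseline replicate 1 and 0.069 without TAC replicate 1). The mean of the Ltbp1 probes did not pass (-0.27, adjusted p = 0.299). Altogether 4 of 34 genes of TGF-beta and BMP signalling rose and 3 fell (20.6% called against 11.8% of all genes), with a median of 0.061.

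**Figure D2:**
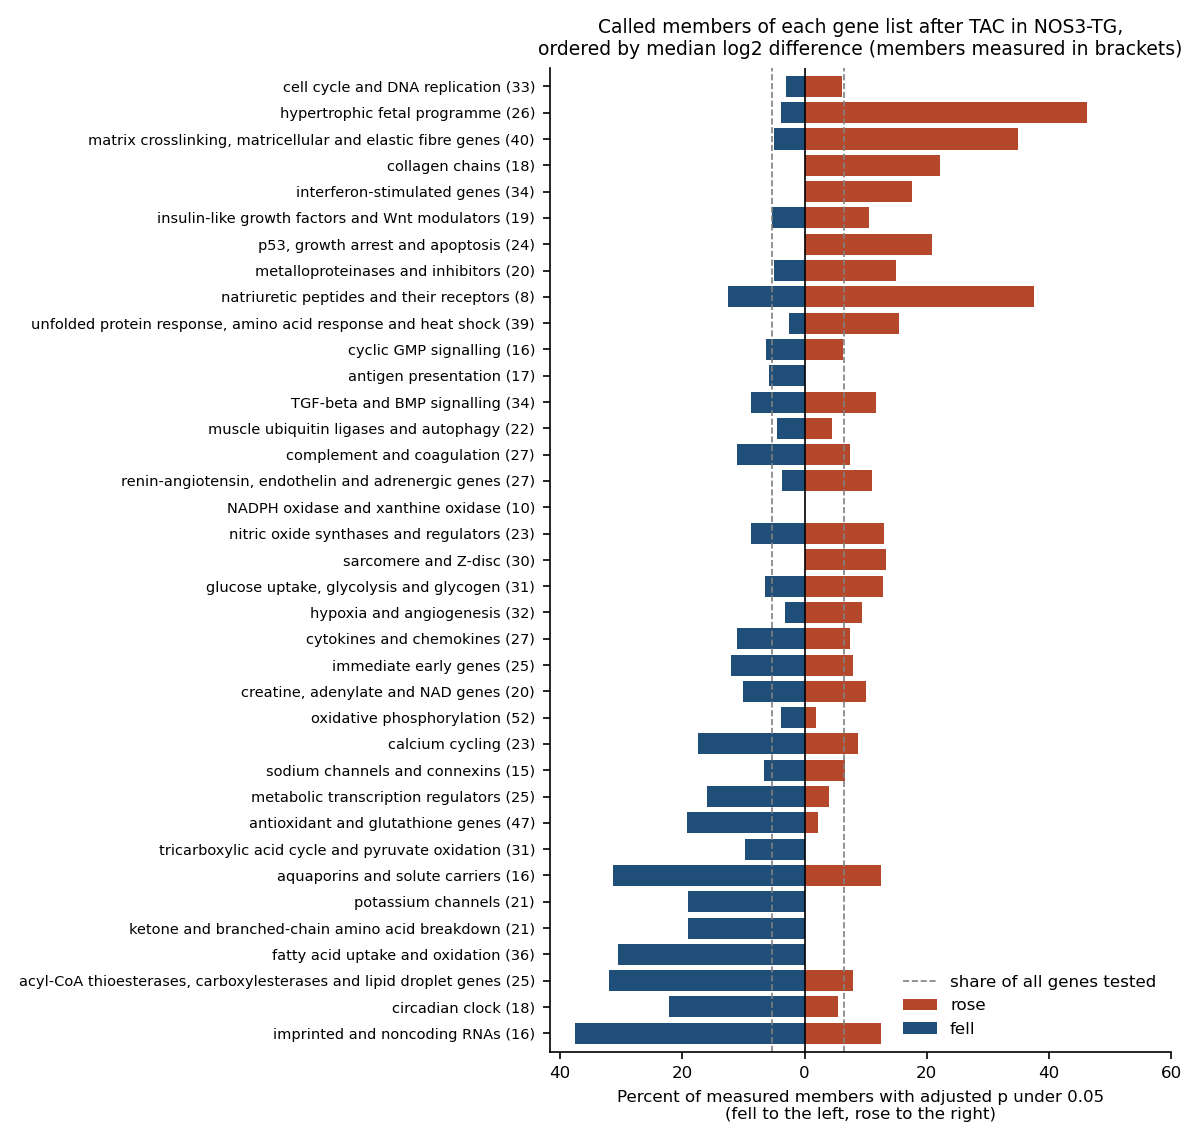
Percent of the measured members of each of 37 gene lists that rose (red, right) or fell (blue, left) at an adjusted p below 0.05 in NOS3-TG ventricle, ordered by the list's median log2 difference. Dashed lines mark the shares of all genes tested, 6.47% for rises and 5.35% for falls, and the hypertrophic fetal programme reaches farthest to the right and the imprinted and noncoding RNAs farthest to the left.

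Genes of fatty acid uptake and oxidation were lower after TAC. Of 36 measured genes 0 rose and 11 fell, all 36 had a negative difference, and the median was -0.374. The count of falls was 2 with scan day as a term and 4 without the 3 arrays, and between 4 and 21 with 1 array left out. Slc27a1, a fatty acid transport protein of the plasma membrane, lay at 3.05, 2.78, 3.23 and 3.16 at baseline and at 1.94, 2.17, 2.25 and 1.92 after TAC. The groups were apart on every array, and it fell by 0.99 log2 units (adjusted p = 0.00328), in males (-1.05) and females (-0.92) alike. Ech1, an auxiliary enzyme for unsaturated fatty acids, lay at 6.87, 6.32, 7.10 and 6.73 at baseline and at 5.63, 6.20, 5.97 and 6.03 after TAC (fell by 0.80, adjusted p = 0.00966), with a difference of -1.19 in males and -0.41 in females. Both are firm. Of the enzymes of the beta-oxidation spiral, Acaa2, the thiolase of the last step, fell by 0.72 (adjusted p = 0.0207), Hadha, of the trifunctional protein, by 0.69 (adjusted p = 0.0173) and Hadh by 0.54 (adjusted p = 0.0122). The other probe of Hadha pointed the opposite way, and the mean of both did not pass (-0.18, adjusted p = 0.726). Of the carnitine shuttle, Crat fell by 0.63 (adjusted p = 0.0102), Cpt2 by 0.56 (adjusted p = 0.0383) and Slc25a20, the acylcarnitine carrier, by 0.48 (adjusted p = 0.0436).

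Other steps of the pathway did not pass. Cpt1b, the muscle carnitine palmitoyltransferase that sets the rate of entry into mitochondria, lay at 6.27, 5.72, 6.32 and 6.05 at baseline and at 5.50, 5.96, 5.93 and 5.99 after TAC (-0.24 ± 0.15, adjusted p = 0.308). In the males both TAC arrays were lower than both baseline arrays, and in the females this was not so. Acadm, the medium-chain dehydrogenase, had the same pattern, with 7.91 and 8.18 at male baseline against 7.24 and 7.41 after TAC, and 7.48 and 7.78 at female baseline against 7.59 and 7.57 (-0.38 ± 0.15, adjusted p = 0.117). The uptake genes Cd36 (-0.24, adjusted p = 0.354), Fabp3 (-0.09, adjusted p = 0.741) and Lpl (-0.10, adjusted p = 0.714) did not pass. Ucp3, an uncoupling protein of muscle, had the largest difference of the list with the widest error and overlapped (-1.14 ± 0.35, adjusted p = 0.0545). Leaving out 1 array removed the call of Acaa2 in 4 of 16 fits (highest adjusted p 0.0634, without TAC replicate 1), of Hadha in 4 (0.0557, without TAC replicate 4), of Cpt2 in 7 (0.107, without baseline replicate 3) and of Slc25a20 in 11 (0.122, without baseline replicate 3).

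**Figure D3:**
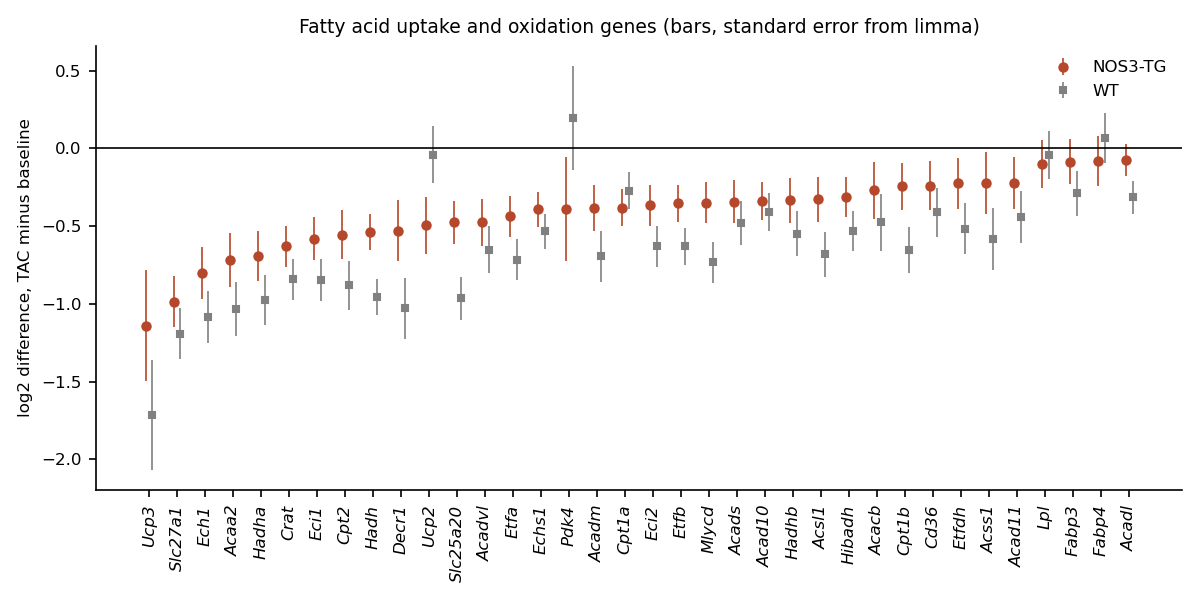
Log2 difference, TAC minus baseline, of 36 genes of fatty acid uptake and oxidation in NOS3-TG (red circles) and WT (grey squares) ventricle, with bars for the standard error from limma and genes ordered by the NOS3-TG value. Every NOS3-TG value lies below 0, from Ucp3 at -1.14 to Acadl at -0.07.

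Thioesterases, carboxylesterases and lipid droplet genes held larger single changes, with 2 rises and 8 falls among 25 and a median of -0.384. Acot1, a cytosolic thioesterase that splits long-chain acyl-CoA and a known target of PPAR-alpha, lay at 3.02, 2.03, 3.36 and 2.83 at baseline and at -0.19, 0.55, 1.09 and -0.06 after TAC (fell by 2.46, adjusted p = 0.00144). Ces1d, a triglyceride hydrolase, was even at baseline, between 3.82 and 4.04, and spread after TAC, at 0.57, 2.71, 1.11 and 2.14. It fell by 2.27 (adjusted p = 0.00203), and the 2 males were lower than the 2 females. Acot1 and Ces1d are firm. The lipid droplet coat genes Plin4 and Plin5 fell by 1.00 and 0.61 (adjusted p = 0.0194 and 0.0303, and 0.0583 and 0.0881 without TAC replicate 1). Lipe, hormone-sensitive lipase, fell by 0.78 (adjusted p = 0.0144). Lipe and the perilipins are also expressed by adipocytes, and adipocyte markers varied between arrays: Adipoq lay between -1.87 and -1.03 on 3 baseline arrays and at -5.38 on baseline replicate 3, and at -1.46, -3.92, -2.88 and -3.67 after TAC. Over the 8 measured adipocyte markers the summed linear level ranged from 272 to 387 at baseline and from 276 to 351 after TAC, and 0 of 8 were called. All 8 had a negative difference, with a median of -0.654, the direction of Lipe and the perilipins. Their part in the changes of Lipe and the perilipins was not tested.

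Downstream of beta-oxidation the shifts were smaller. Of 31 genes of the tricarboxylic acid cycle and pyruvate oxidation 0 rose and 3 fell (Sdhc, Sdha and Idh3g, median -0.207), and of 52 oxidative phosphorylation genes 1 rose and 2 fell (median -0.15), a called share below that of all genes. Ndufs1, a core subunit of complex I, lay between 6.86 and 7.17 at baseline and at 6.31, 6.80, 6.56 and 6.67 after TAC (fell by 0.41, adjusted p = 0.043). Its call was lost in 12 of 16 fits with 1 array left out (at most at 0.124, without TAC replicate 1). Sdhc, a membrane anchor of succinate dehydrogenase, fell by 0.44 (adjusted p = 0.0126), and Cox7c, a subunit of cytochrome c oxidase, was the gene that rose, by 0.59 ± 0.11 (adjusted p = 0.0064). Of 21 genes of ketone and branched-chain amino acid breakdown 0 rose and 4 fell, with 0 called with scan day as a term or without the 3 arrays, among them Bckdhb, a subunit of the branched-chain ketoacid dehydrogenase (fell by 0.64, adjusted p = 0.0386, and 0.11 without baseline replicate 1).

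Glucose genes were mixed, with 4 rises and 2 falls among 31 (19.4% called against 11.8% of all genes). Pfkfb1, which sets the level of fructose-2,6-bisphosphate, lay at 1.90, 0.38, 2.49 and 1.58 at baseline and at -1.40, -0.22, -0.83 and -1.12 after TAC (fell by 2.48, adjusted p = 0.00289), with baseline replicate 2 the nearest to the TAC arrays. Ppp1r3c, which targets protein phosphatase 1 to glycogen, rose by 0.92 ± 0.13 (adjusted p = 0.00126), and both it and Pfkfb1 are firm. Pfkp, the platelet form of phosphofructokinase, rose by 0.96 ± 0.17 (adjusted p = 0.00457). Beside the rise of Nmrk2, the other routes to NAD were lower: Nampt, of the salvage route from nicotinamide, fell by 0.86 (adjusted p = 0.0182, and 0.0557 without baseline replicate 3), and Naprt, which starts from nicotinic acid, by 0.60 (adjusted p = 0.00502, firm). Cd38, an enzyme that consumes NAD, rose by 0.71 ± 0.15 (adjusted p = 0.00862).

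Of the transcription factors of metabolism, Ppara, the fatty acid sensor, lay at 1.66, 1.63, 1.64 and 1.92 at baseline and at 0.76, 1.60, 1.20 and 0.95 after TAC, with TAC replicate 2 just under the lowest baseline array. It fell by 0.58 (adjusted p = 0.043), a call lost in 10 of 16 fits with 1 array left out (at most at 0.127 without TAC replicate 4). Nr1h3, the liver X receptor alpha, fell by 0.45 (adjusted p = 0.0207, and 0.0596 without baseline replicate 4). Of 25 such regulators 1 rose and 4 fell (20.0% called against 11.8% of all genes, median -0.187).

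The nitric oxide system was read gene by gene. The Nos3 probe read 6.58 log2 units higher in NOS3-TG than in WT mice at baseline. Within NOS3-TG it lay at 7.63, 8.02, 7.91 and 7.88 at baseline and at 6.94, 7.77, 7.27 and 7.55 after TAC, with 1 female TAC array above the lowest baseline array, and fell by 0.48 ± 0.12 log2 units (adjusted p = 0.0207). That call was lost in 3 of 16 fits with 1 array left out, at most at 0.0629 without baseline replicate 3, and with scan day as a term (0.0625). Of the enzyme's partners, Hsp90aa1, an inducible chaperone that binds Nos3, lay at 5.28, 5.81, 5.19 and 5.57 at baseline and at 6.00, 6.28, 5.95 and 6.42 after TAC (0.70 ± 0.10, adjusted p = 0.00111). Hsp90ab1, the constitutive form, did not pass (-0.04, adjusted p = 0.785). Calm3, a calmodulin gene, fell by 0.85 log2 units (adjusted p = 0.000501), from between 4.56 and 4.99 to between 3.63 and 4.09, while Calm2 (-0.16, adjusted p = 0.393) did not pass. Hsp90aa1 and Calm3 are firm. The caveolins Cav1 (-0.10, adjusted p = 0.571) and Cav3 (-0.09, adjusted p = 0.492), which bind and inhibit the enzyme, differed little, and Nostrin, which moves it from the membrane, did not pass (0.47, adjusted p = 0.114).

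For the cofactor, Gch1, the first enzyme of tetrahydrobiopterin synthesis (-0.18 ± 0.10, adjusted p = 0.271), and the later enzymes Pts (-0.19, adjusted p = 0.269) and Spr (-0.02, adjusted p = 0.906) did not pass, nor did the recycling enzyme Qdpr (-0.18, adjusted p = 0.188). For the substrate, Asl, which regenerates arginine, rose by 0.38 ± 0.10 (adjusted p = 0.0231, and 0.0682 without baseline replicate 3). Ddah2, which breaks down methylated arginines that inhibit the enzyme, rose by 0.39 ± 0.11 (adjusted p = 0.0371, and 0.106 without TAC replicate 1). Nos1, the neuronal form, was well above background on 2 baseline and 4 TAC arrays and differed by 0.46 ± 0.55 (adjusted p = 0.631). In all, 3 of 23 measured genes of this list rose and 2 fell, a called share of 21.7% against 11.8%. Of 16 cyclic GMP genes 1 rose and 1 fell, a called share of 12.5%. Pde1c, a phosphodiesterase of cyclic nucleotides, rose by 0.59 ± 0.12 (adjusted p = 0.00781). Mrvi1, a substrate of the cyclic GMP-dependent kinase in smooth muscle, fell by 0.54 (adjusted p = 0.0257, and 0.0791 without baseline replicate 1). The mean of the Mrvi1 probes did not pass (-0.44, adjusted p = 0.125).

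Of 47 antioxidant and glutathione genes 1 rose and 9 fell (median -0.198), and the firm members were glutathione transferases. Gstt1 lay at -0.15, -0.09, -0.29 and -0.25 at baseline and at -1.79, -1.35, -1.91 and -1.63 after TAC, and fell by 1.47 log2 units (adjusted p = 0.00019). Its neighbour Gstt2, on chromosome 10 as well, fell by 0.88 (adjusted p = 0.000754), and Gstm7 by 0.74 (adjusted p = 0.00239). These 3 are firm, and in each the groups did not overlap. Hmox1, heme oxygenase 1, fell by 0.53 (adjusted p = 0.0217, and 0.0636 without baseline replicate 4). None of the 10 NADPH oxidase and xanthine oxidase genes was called by limma.

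Of 39 genes of protein folding and amino acid stress 6 rose and 1 fell (17.9% called against 11.8% of all genes). The mitochondrial folate enzyme Mthfd2 was below background on all baseline arrays and at least 2.70-fold higher after TAC (adjusted p = 0.00396), a call lost with normexp (difference 0.63, adjusted p = 0.169), while Aldh1l2, the next mitochondrial folate enzyme of the list, lay between -1.61 and -1.22 at baseline and between -3.36 and -2.69 after TAC and fell by 1.47 (adjusted p = 0.000277, firm). Asns, asparagine synthetase, rose by 0.68 ± 0.15 (adjusted p = 0.0143) and the small heat shock protein gene Hspb1 by 0.64 ± 0.13 (adjusted p = 0.00748). Herpud1, Atf3 and Ddit3, often used as signs of endoplasmic reticulum stress, did not pass.

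Bcl2, which blocks mitochondrial apoptosis, was almost level at baseline, at 0.18, 0.16, 0.17 and 0.15, and lay at 2.00, 1.60, 2.06 and 2.32 after TAC. It rose by 1.83 ± 0.13 (adjusted p = 1.47e-05), alike in males (1.86) and females (1.81). Tnfrsf12a, the receptor of the cytokine TWEAK, rose by 1.75 ± 0.21 (adjusted p = 0.000442), from between 3.78 and 4.85 to between 5.73 and 6.36. Both are firm. Bbc3, a pro-apoptotic relative of Bcl2, and Phlda3, a target of p53, rose by 0.45 ± 0.13 and 0.85 ± 0.21 (adjusted p = 0.0369 and 0.0201, and 0.111 without TAC replicate 4 and 0.0627 without TAC replicate 1). Cdkn1a, the p53 target that arrests the cell cycle, overlapped (0.61 ± 0.38, adjusted p = 0.321), with male baseline arrays at -1.22 and -1.44 and female ones at 0.64 and -0.10.

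Cell cycle genes had a median difference of 0.785, with 30 of 33 positive, yet 2 rose and 1 fell. With normexp the median was 0.559, and the rise of Kif11 (1.28, adjusted p = 0.0473) shrank to 0.18 (adjusted p = 0.721). Ccnd2, the cyclin D2 of entry into the cycle, lay between 4.38 and 4.46 at baseline and between 5.02 and 5.22 after TAC (0.74 ± 0.10, adjusted p = 0.000999), and Cenpf, a centromere protein, fell by 1.59 log2 units (adjusted p = 0.00243). Both are firm, but the mean of the Cenpf probes did not pass (-0.87, adjusted p = 0.155). In Ccnb1 and Mki67 the high TAC values were those of males. Ccnb1, cyclin B1, lay between -5.67 and -5.30 at baseline and at -1.95 and -3.70 in the TAC males, but at -5.82 and -5.79 in the TAC females (adjusted p = 0.32). Mki67 followed the same order, with the TAC males at 1.23 and 1.33, the TAC females at -0.27 and 0.19 and baseline between -0.28 and 0.33 (0.63 ± 0.35, adjusted p = 0.258). The baseline values of Ccnb1 lay below the dimmest signal counted as above background on those arrays (-4.58 to -2.995). On TAC replicate 3, a male, that limit was -3.34, so the sizes in Ccnb1 are uncertain.

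Among 18 measured clock genes 1 rose and 4 fell, with a median of -0.419. With scan day as a term, and also without the 3 arrays, 0 rose and 2 fell. Arntl, which encodes the activator BMAL1, lay at -2.22, -1.23, -2.96 and -1.90 at baseline and at 0.28, -1.20, -0.04 and -1.15 after TAC, and rose by 1.55 ± 0.40 (adjusted p = 0.0267). The TAC males accounted for the high values, and the female TAC arrays were only just above the highest baseline array. Of the repressors that BMAL1 and CLOCK switch on, Per1 lay at 1.69, 1.57, 1.83 and 1.79 at baseline and at 0.53, 0.91, -0.04 and 0.93 after TAC (fell by 1.14, adjusted p = 0.0187). Per2 fell by 1.13 (adjusted p = 0.0121), with its other probe pointing the opposite way and a mean of both probes that did not pass (-0.43, adjusted p = 0.348). Of the output factors that bind D-boxes, Hlf lay at 1.63, 1.38, 1.96 and 1.62 at baseline and at -0.73, 0.66, 0.01 and 0.66 after TAC (fell by 1.50, adjusted p = 0.00454), and Tef fell by 0.63 (adjusted p = 0.00879). Hlf and Tef are firm. Dbp, the third output factor, did not pass (-0.71 ± 0.26, adjusted p = 0.0965): the male baseline arrays (6.81 and 7.09) lay above all the others, which ran from 5.32 to 5.96. Leaving out TAC replicate 1 removed the call of Arntl (0.0818) and leaving out TAC replicate 3 that of Per1 (0.0524). The sources used here do not give the hour at which hearts were taken, and its part in these values was not tested.

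Promoters of 16 of the 19 listed clock genes were found. In 5 of these genes the E-box CACGTG, the site of the BMAL1-CLOCK pair, lies within the 250 bases before a RefSeq start. Genes with several starts counted if any window held the box. Of all windows, searched on both strands, 6.02% held it, so the former counts genes and the latter windows. Those of Per1 (chr11:69098699-69098948) and Tef (chr15:81802423-81802672 and chr15:81811164-81811413), all on the plus strand of GRCm38.p6, are shown with the E-box in capitals, since both genes fell and hold the box. A second Per1 window (chr11:69099902-69100151) holds none, nor does that of Hlf, which fell as well. The boxes begin 166, 127 and 138 bases before the start.
Per1: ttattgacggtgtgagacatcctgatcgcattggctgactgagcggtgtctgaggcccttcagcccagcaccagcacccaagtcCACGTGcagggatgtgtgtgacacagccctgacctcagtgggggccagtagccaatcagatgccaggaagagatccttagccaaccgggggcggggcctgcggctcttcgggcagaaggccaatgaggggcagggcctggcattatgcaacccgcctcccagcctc
Tef, first start: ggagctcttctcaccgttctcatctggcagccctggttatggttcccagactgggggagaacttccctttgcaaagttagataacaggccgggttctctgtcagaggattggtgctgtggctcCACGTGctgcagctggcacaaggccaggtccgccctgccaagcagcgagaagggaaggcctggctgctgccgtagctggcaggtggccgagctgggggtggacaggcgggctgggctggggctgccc
Tef, second start: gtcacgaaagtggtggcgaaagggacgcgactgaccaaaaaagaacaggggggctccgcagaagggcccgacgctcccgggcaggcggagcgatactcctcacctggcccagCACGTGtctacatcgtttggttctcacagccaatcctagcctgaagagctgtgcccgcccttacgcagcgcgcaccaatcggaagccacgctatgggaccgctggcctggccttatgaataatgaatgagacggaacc
Cry1 and Bhlhe41 hold 1 and Ciart 3 such boxes, and none of these 3 genes was called. Arntl, the gene that rose, has none in its windows.

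Interferon-stimulated genes rose in 6 of 34 cases and fell in none, with a median of 0.357. Ifi44, which interferon induces, lay at -2.01, -1.18, -2.27 and -1.42 at baseline and at -0.39, -0.67, -0.16 and -0.38 after TAC (1.32 ± 0.21, adjusted p = 0.00259), and is the firm member of the list. Rsad2, the antiviral protein viperin, rose by 0.75 ± 0.15 (adjusted p = 0.00886), Gbp6, a guanylate-binding protein, by 0.98 ± 0.21 (adjusted p = 0.011) and Psmb10, a subunit of the immunoproteasome, by 0.51 ± 0.11 (adjusted p = 0.0131). Irf7, an interferon regulatory factor, reached at most -0.40 on the baseline arrays and lay at 0.58, -0.03, 0.88 and -0.08 after TAC, highest in the males (adjusted p = 0.0426). Its call was lost in 10 of 16 fits with 1 array left out, at most at 0.122 without baseline replicate 1. Of 27 cytokines and chemokines 2 rose and 3 fell (18.5% called against 11.8% of all genes). Ccl11, the eosinophil chemokine eotaxin, fell (adjusted p = 0.00122), from -2.02, -3.88, -1.86 and -2.79 to values between -5.76 and -5.10. Only 1 TAC array was well above background, so the size is uncertain: the log2 difference was -2.84, and -1.44 with normexp (adjusted p = 0.0223). Il15, a cytokine of natural killer and memory T cells, fell by 1.19 (adjusted p = 0.0113, and 0.0885 for the mean of its probes). The complement inhibitor genes moved apart, with Cd55 rising by 0.59 ± 0.12 (adjusted p = 0.00884) and Cd59a falling by 0.54 (adjusted p = 0.00706).

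Imprinted and noncoding RNAs had the lowest median of all 37 lists, -0.65, with 2 rises and 6 falls among 16 measured. Snrpn, a splicing protein gene expressed from the paternal chromosome 7, lay at 3.87, 4.38, 4.16 and 3.69 at baseline and at 1.92, 3.02, 2.69 and 2.60 after TAC (fell by 1.47, adjusted p = 0.000999). Snurf and Snhg14, read from the same locus, fell by 1.50 and 1.51 (adjusted p = 0.0153 and 0.0132), and since they share transcripts with Snrpn these are not independent readings. The other probe of Snhg14 pointed the opposite way. Snhg11, a host gene of small nucleolar RNAs on chromosome 2, lay at -0.16, 1.40, 0.08 and -0.42 at baseline and at -2.84, -2.07, -1.51 and -2.01 after TAC (fell by 2.33, adjusted p = 0.00558). Snrpn and Snhg11 are firm. Peg3, a paternally expressed zinc finger gene, fell by 2.04 ± 0.53 (adjusted p = 0.0257, and 0.082 without TAC replicate 4). Baseline replicate 2 was the highest array in Peg3 (0.84, the others between -1.62 and -1.17), in Snhg11 and in Meg3, a maternally expressed noncoding RNA that lay at 3.92 on that array and between -0.41 and 0.61 on the other baseline arrays. Meg3 did not pass (-1.56 ± 0.71, adjusted p = 0.172). Without the 3 arrays, of which it is 1, the list's median was -0.283 with 2 falls. Mest, also paternally expressed, rose by 0.96 ± 0.28 (adjusted p = 0.0432, and 0.121 without TAC replicate 1).

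Markers of the cells of the heart wall bear on how these bulk values can be read, since fewer cells of a type and less RNA per cell cannot be told apart. Ventricular Myl2 was high on all arrays, at 8.32, 8.10, 8.79 and 8.56 at baseline and at 8.25, 8.55, 8.17 and 8.53 after TAC, as a ventricular sample would have it. Of 20 fibroblast markers 6 rose and 1 fell (median 0.174), and their summed linear level, in multiples of the array's 75th percentile, was 409 to 476 at baseline and 447 to 550 after TAC. Differences were positive in 13 of the 20. Meox1, a homeobox gene of activated fibroblasts, rose by 1.80 ± 0.36 (adjusted p = 0.00761, and 0.086 without the 3 arrays). Scara5 was the fibroblast marker that fell, by 1.42 (adjusted p = 0.028, and 0.164 without the 3 arrays). Among 15 markers of smooth muscle and pericytes there were 2 rises and 3 falls: Myh11, smooth muscle myosin, lay at 1.69, 1.47, 0.76 and 1.52 at baseline and at 0.39, -0.24, 0.41 and 0.40 after TAC (fell by 1.12, adjusted p = 0.0151), and Lmod1 fell by 1.31 (adjusted p = 0.00729). The summed level of that list was 165 to 195 at baseline and 235 to 271 after TAC. Its median difference was -0.153, with 5 of 15 markers positive. The sum includes the bright gene Des, described above among the sarcomere and Z-disc genes. Acta2, smooth muscle actin, which is in that list, rose by 1.30 (adjusted p = 0.000277). All 3 other probes of Acta2 pointed the opposite way, and the mean of its probes differed by -0.067. Of 19 macrophage markers 3 rose (15.8% called against 11.8% of all genes, summed level 96.2 to 115 at baseline and 109 to 128 after TAC). Of 7 granulocyte and mast cell markers 1 fell (14.3% called). Their part in the changes of matrix and immune genes was not tested.

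Atrial markers set the arrays apart within both groups. Myl7, the atrial light chain, lay at 6.71, 6.41, -4.38 and 6.38 at baseline and at 2.49, -3.27, 5.41 and -2.28 after TAC. Sln, the sarcolipin of atrial myocytes, was low on the same arrays, at 4.72, 4.33, -6.29 and 4.11 and at 0.47, -4.07, 4.06 and -4.38. Over 9 atrial markers the summed level ran from 21.2 to 207 at baseline and from 15.8 to 98.5 after TAC, and 1 of 9 was called. Nppa is itself abundant in atrium. At baseline the array lowest in Myl7, replicate 3, was also lowest in Nppa (5.87), whereas after TAC the arrays lowest in Myl7, replicates 2 and 4, had Nppa at 8.45 and 8.56. Myl4 and Myl7 are members of the fetal programme, with differences that did not pass. Without baseline replicate 3 the difference of Nppa was 1.43 (adjusted p = 0.0419), against 1.75 with it, and the part of atrial tissue in it was not tested.

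**Figure D4:**
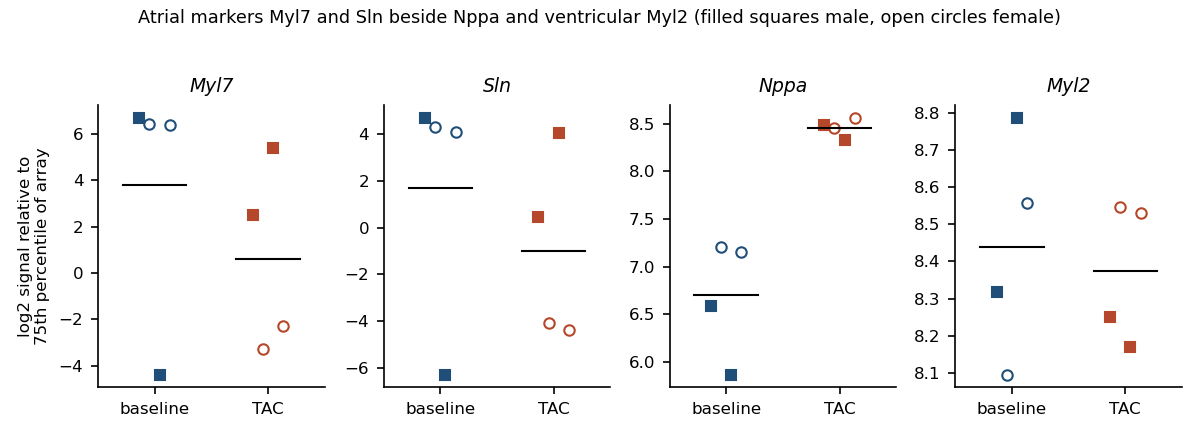
Log2 signal relative to the 75th percentile of the array of the atrial markers Myl7 and Sln, of Nppa and of the ventricular light chain Myl2 on the 8 NOS3-TG arrays, with filled squares for males, open circles for females and a line at the group mean. Baseline replicate 3 and the 2 TAC females are lowest in Myl7 and Sln, while all 4 TAC arrays lie between 8.32 and 8.56 in Nppa.

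Males and females of the NOS3-TG groups differed in the size of the shifts in some lists, although no gene passed the test of that difference. Fitted separately, 850 genes were called in males (5.43%) and 326 in females (2.08%), and the sex-by-TAC term of limma called 0 genes, with 1685 (10.8%) at an unadjusted p below 0.05. Without baseline replicate 4 it called 135. In fatty acid uptake and oxidation the median difference was -0.625 in males and -0.131 in females, 34 of 36 genes were larger in males, and 19 had an unadjusted sex-by-TAC p below 0.05. Oxidative phosphorylation lay at -0.338 in males and 0.07 in females, and the tricarboxylic acid cycle at -0.412 and 0.012. Cell cycle genes lay at 1.354 and 0.197, with 31 of 33 larger in males, and interferon-stimulated genes at 0.563 and 0.065. By contrast the hypertrophic fetal programme lay at 0.848 and 0.711, with 10 of 26 genes larger in males, and the imprinted RNAs at -0.486 and -0.648. Over all genes the medians were -0.058 and 0.061, and 8529 of 15667 genes were larger in males. The male and female baselines differed as well: in Acadm, Cpt1b, Dbp and Ech1 both male baseline arrays lay above both female ones. Atrial markers had a median of 0.763 in males and -2.168 in females and adipocyte markers 0.453 and -2.351. With 2 mice per sex and group, the part of these markers was not tested. The part of the arrays farthest from the others in share above background was not tested either. Of those, baseline replicate 2 (lowest) and TAC replicate 4 (highest) were females, and TAC replicate 3 (46.17%) was a male.

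**Figure D5:**
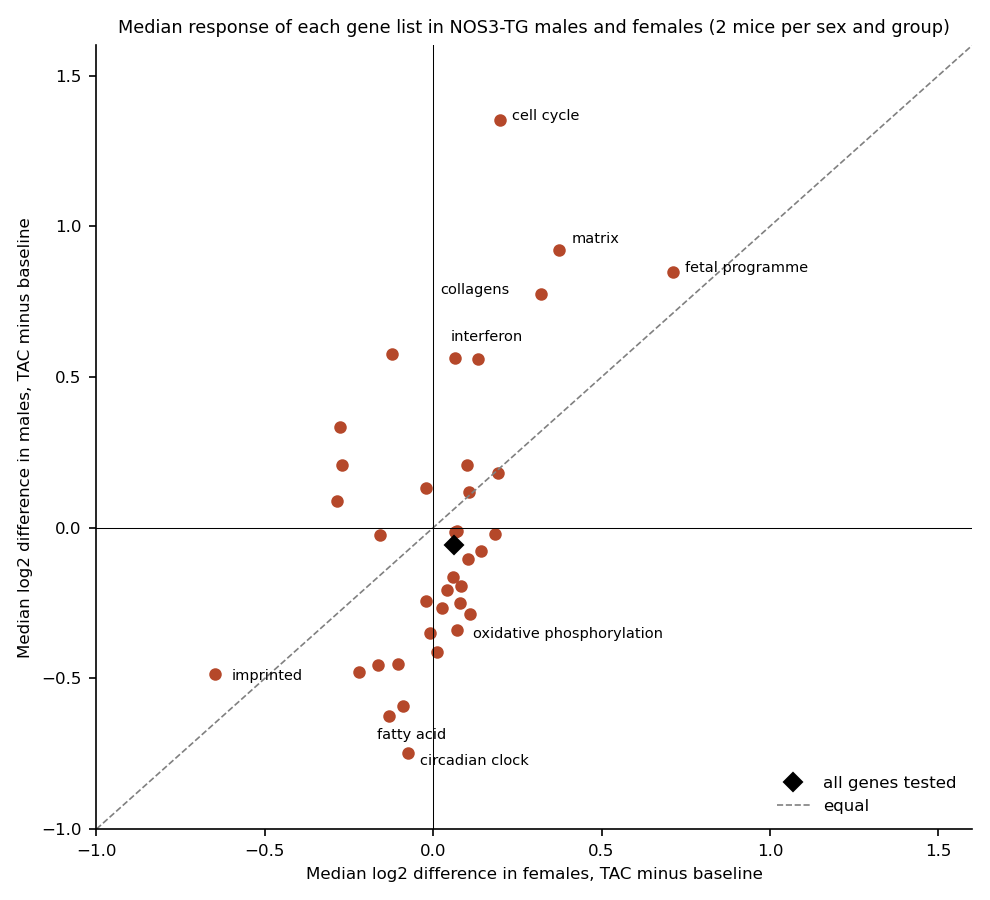
Median log2 difference, TAC minus baseline, of each of 37 gene lists in NOS3-TG females (horizontal axis) and males (vertical axis), 2 mice per sex and group, with a diamond for all genes tested and a dashed line where both are equal. The cell cycle, matrix, collagen and interferon lists lie above the line, the fatty acid, circadian clock and oxidative phosphorylation lists below it, and the fetal programme close to it.

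The response of WT littermates, with the same design, had the same sign for 1811 of the 1851 genes called in NOS3-TG. It had 4456 called genes (28.4%), of which 1707 rose (10.9% of all genes) and 2749 fell (17.5%), and 1394 genes were called in both genotypes in the same direction, 75.3% of the NOS3-TG calls and 31.3% of the WT calls, against 2 in opposite directions. The median size of a log2 difference was 0.186 in NOS3-TG and 0.243 in WT. WT arrays of each condition shared slides and scan days with the NOS3-TG arrays of that condition. Agreement between the genotypes is therefore no independent check on slide or scan day, whose part was not tested. The test of the difference between the responses called 0 genes, with 1166 (7.44%) at an unadjusted p below 0.05, so no gene is shown to respond differently. In WT 27 of 36 fatty acid genes fell (median -0.63), 23 of 40 matrix genes rose (median 1.051), 12 of 18 collagen chains rose (median 0.804) and 22 of 33 cell cycle genes rose (median 1.668). The smallest unadjusted p belonged to Ier5, an immediate early gene that fell by 0.49 in NOS3-TG (adjusted p = 0.0182) and differed by 0.59 in WT (difference -1.08, unadjusted p = 1.8e-05), and to Ryr3, the ryanodine receptor of smooth muscle and brain, at 0.13 in NOS3-TG and -1.30 in WT (difference 1.43, unadjusted p = 3.1e-05). Neither passed adjustment. Of the genes above, Snhg11 differed by -0.18 in WT and Bcl2 by 1.33 (unadjusted p of the difference from NOS3-TG 0.004 and 0.014, neither passing adjustment).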

How the data were processed

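Gene expression was measured on 16 one-colour Agilent arrays, of which 8 are described and all 16 entered the fits. The authors deposited scanner output holding a processed intensity per spot. The submitters' processing notes name version 9.5.1.1 of Agilent Feature Extraction. The log2 values of the authors' deposited table were used only as an alternative. Here control spots were removed, spots of a probe averaged, and log2 intensity taken relative to the 75th percentile of each array. The brightest probe stood for a gene if well above background on at least 4 arrays, which left 15667 genes. Of 41174 probes, 23082 were named by accession, 6582 by symbol, 3073 by synonym and 8437 as in the files.

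limma 3.58.1 in R 4.3.3 fitted 4 group means and sex, and a second model group by sex. Calls used a Benjamini-Hochberg adjusted p below 0.05, two-sided, over all genes. On simulated data with 15508 genes the TAC test in NOS3-TG recovered 78% of changes of 1 and 94% of changes of 2 on the log2 scale, with 6.52% false calls. The simulation changed 100 genes per size, drew independent noise for each gene, and held no slide, scan day or array effect. Its shares hold for that setting only and do not cover such effects in the deposited arrays. Promoter windows came from RefSeq, GRCm38.p6. Named genes were 12 response genes, the 15 largest non-overlapping rises and falls, up to 6 called members per list, and the natriuretic, nitric oxide and defining marker genes. Others are named as members of those lists after their values were seen. Members and lists were chosen with earlier results of these data known. Nothing states that the mice of a group were processed separately, so p-values measure the spread between these samples. Alternatives changed the background correction, scaling, filter, probe rule, weights, arrays used and scan day. Some single genes are not reported here.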

Additional observations from a re-analysis of the deposited data

Results flagged for a closer look

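Among 86 groups of 4 arrays, over 41 genes, 2 had an array that stood apart from the other 3 by a Dixon test, where chance gives about 1 in 20. Acsm5, a medium-chain acyl-CoA synthetase, lay at -2.228 on TAC replicate 2, a female, and between -3.102 and -3.003 on the other TAC arrays. Nmb, the neuromedin B gene, lay at 0.327 on the same array and between -1.052 and -0.818 on the others. In both genes this array was the nearest to baseline.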

How the results depend on the processing

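The 1851 calls (1013 higher, 838 lower) became 1035 (582 and 453) with normexp background correction, 754 (449 and 305) without the filter, 1185 (506 lower) with the NOS3-TG arrays alone, 756 (462 and 294) with scan day as a term, 401 (212 and 189) without the 3 arrays, and 666 (364 and 302) on the first scan day. Array weights gave 2946 (1639 lower). With 1 array left out they ranged from 971 to 2259, with 525 to 1197 higher and 417 to 1062 lower. Genes higher made up 54.7% of calls, 44.4% with array weights and 43.1% without baseline replicate 2. The genotype interaction ranged from 0 to 1 call with 1 array left out. Sex-by-TAC ranged from 0 to 135, with 1 call in the NOS3-TG arrays alone and 1 without the 3 arrays. Without the filter the median of all genes was -0.153. The settings without the 3 arrays and on the first scan day were chosen after seeing the data.

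Averaging the probes of a gene turned 3 called genes: Tek (0.2676 to -0.0143), Acta2 (1.2986 to -0.067) and Grb10 (0.3952 to -0.046). Other signs turned in differences that had not passed: Hsp90ab1 (without baseline replicate 3, 0.0143), Nos1 (without TAC replicate 4, -8e-04; without the 3 arrays, -0.2652; first scan day, -0.1331), Nosip (mean of probes, 0.0131), Pln (without baseline replicate 3, 0.0048), Ryr3 (without the 3 arrays, -0.0213), Slc7a1 (without baseline replicate 2, -0.0454; without the 3 arrays, -0.1693) and the genotype interaction of Clec12b (normexp, -0.0847). Spr turned to 0.0275 with scan day, 0.0108 without the 3 arrays, 0.0914 on the first scan day, and 0.0242, 0.0127, 0.0341 and 0.0224 without TAC replicate 3 or 4 or baseline replicate 3 or 4. With 1 array left out these ranged from -0.0706 to 0.0143 (Hsp90ab1), -8e-04 to 0.8643 (Nos1), -0.1878 to 0.0048 (Pln), -0.0454 to 0.3645 (Slc7a1) and -0.1036 to 0.0341 (Spr). The causes were not tested. No paired analysis was possible because baseline and TAC arrays came from different mice and the labels give no pairs. The number of arrays limits precision, and low genes are bounded by the background.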
